A study of Mus musculus with 12 samples.

Results

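The genes described here were Fos, Fosb, Fosl1, Fosl2, Jun, Junb, Jund, Atf3, Maff and Egr1, the subunits and close partners of the transcription factor AP-1 together with the immediate early gene Egr1. The genes were taken by name, and all 10 were found among the 24340 genes of the expression table and among the 18509 genes above 0 in at least 1 library, which were the genes tested. Retinas came from p16-3MR mice aged 12 to 16 weeks, and every animal, controls included, carried the transgene. It places a reporter and the herpes simplex thymidine kinase under the regulatory region of p16, so that ganciclovir (GCV) kills only cells in which that region is active. In each mouse the intraocular pressure (IOP) of a single eye was raised to 85 to 90 mm Hg for 60 minutes, and the untouched fellow eye was the control. Mice 3, 4 and 6 received no GCV and gave the groups ctrl and IOP. The study's methods name PBS or vehicle as the sham treatment, and the labels do not say which these mice received. Mice 1, 2 and 5 received GCV at 25 mg/kg once a day and gave ctrl-GCV and IOP-GCV. Retinas were taken on day 3, and each of the 4 groups held 3 retinas of 3 mice. The questions were whether pressure changed these genes and whether GCV altered that change.

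AP-1 is a dimer of basic leucine zipper proteins. Jun proteins can pair with themselves or with Fos proteins, Fos proteins need a Jun partner, and the dimer binds the sequence TGACTCA and, with ATF partners, the related cAMP response element TGACGTCA. Fos, Fosb, Jun, Junb and Egr1 are immediate early genes, transcribed within minutes of a stimulus from factors already present in the cell, whereas Jund is expressed steadily in many tissues. In the retina, Jun and Atf3 are known to accumulate in ganglion cells after injury to their axons.

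Promoter sequence is shown for 5 genes that rose over the 6 mice (Fos, Fosb, Jun, Junb and Atf3) and for Jund, which was not called, so that their start regions can be read side by side. RefSeq promoter windows on build GRCm38.p6 (mm10) matched 8 of the 10 genes, in 10 windows, and Fosl1 and Egr1 had no entry. The bases run 5′ to 3′ on the gene's strand up to its annotated start, 250 for each gene except Fosb, for which 177 bases lie before the outermost start. The Fos window was chr12:85473640-85473889 on the plus strand, and that of Fosb was chr7:19310119-19310295 on the minus strand. The Jun, Junb and Atf3 windows lay on the minus strand at chr4:95052223-95052472, chr8:84978749-84978998 and chr1:191183334-191183583, and the Jund window at chr8:70697489-70697738 on the plus strand. Capitals mark the letters TGACG, the left part of the cAMP response element, on either strand (CGTCA when read from the other strand), and in Jun the related TGACATCA.
Fos: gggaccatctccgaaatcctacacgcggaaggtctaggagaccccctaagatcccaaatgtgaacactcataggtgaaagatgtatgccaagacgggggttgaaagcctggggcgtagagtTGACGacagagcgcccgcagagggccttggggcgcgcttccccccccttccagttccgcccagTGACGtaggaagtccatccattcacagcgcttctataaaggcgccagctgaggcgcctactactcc
Fosb: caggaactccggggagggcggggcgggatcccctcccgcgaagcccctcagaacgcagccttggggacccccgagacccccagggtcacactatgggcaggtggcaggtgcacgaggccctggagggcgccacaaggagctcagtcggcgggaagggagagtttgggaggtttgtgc
Jun: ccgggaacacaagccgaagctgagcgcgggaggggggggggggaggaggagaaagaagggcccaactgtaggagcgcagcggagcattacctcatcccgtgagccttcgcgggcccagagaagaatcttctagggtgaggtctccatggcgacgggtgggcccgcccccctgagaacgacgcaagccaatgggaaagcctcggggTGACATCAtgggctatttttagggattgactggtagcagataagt
Junb: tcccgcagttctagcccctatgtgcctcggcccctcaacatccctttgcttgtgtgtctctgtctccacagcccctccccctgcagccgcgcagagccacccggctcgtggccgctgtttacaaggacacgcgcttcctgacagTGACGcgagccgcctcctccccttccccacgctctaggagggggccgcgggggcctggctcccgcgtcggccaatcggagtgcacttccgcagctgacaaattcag
Atf3: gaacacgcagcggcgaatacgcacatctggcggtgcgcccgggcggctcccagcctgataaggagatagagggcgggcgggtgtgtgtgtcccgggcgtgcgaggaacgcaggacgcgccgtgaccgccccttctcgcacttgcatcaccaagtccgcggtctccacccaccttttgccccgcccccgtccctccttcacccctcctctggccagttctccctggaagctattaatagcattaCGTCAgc
Jund: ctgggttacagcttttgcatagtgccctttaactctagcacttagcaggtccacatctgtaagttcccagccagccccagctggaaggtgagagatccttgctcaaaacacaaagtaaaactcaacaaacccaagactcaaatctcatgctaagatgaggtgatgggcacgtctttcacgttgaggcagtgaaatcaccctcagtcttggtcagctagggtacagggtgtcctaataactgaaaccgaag

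The 250 bases before each start were searched on both strands in all 32851 RefSeq promoter windows. TGACTCA lay in 4.46% of all windows and in none of those of the 8 genes. TGACGTCA lay in 1.55% of windows and, among the 8 genes, in Maff. TGACATCA lay in 2.93% of windows, in Jun at bases -45 to -38 before the start and in Maff. GCGGGGGCG, a site of the Egr1 protein, lay in 2.57% of windows, and in Fosb (at -50 to -42, beyond the printed bases) and Fosl2. The CArG box bound by serum response factor lay in 1.47% of windows and TTCCNGGAA, a STAT site, in 0.913%. Neither was found in the 250 bases searched for the 8 genes, and bases further upstream were not searched. The short TGACG, added after the sequences had been read, lay in 17.8% of windows and in Fos, Fosb, Junb, Atf3 and Maff, and overlaps every TGACGTCA. In Fosb it lay at -60 to -56, beyond the printed bases, so the Fosb line holds no capitals. These matches describe letters in a window.

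The values were taken to be FPKM, fragments scaled by transcript length and by library depth, although the table does not name its unit. The order of levels between genes and the shares given below rest on that reading, as a level per length. Each library held 14844 to 16593 genes above 0, with sums of 394758 to 529896 FPKM, and the depth, which the table does not state, was estimated at 4000000 fragments for the IOP library of mouse 6 and 6800000 to 9020000 for the others. Rhodopsin, the rod pigment, stood between 10619 and 26613 FPKM, as in retina. The IOP library of mouse 6 therefore stood apart by depth. Without it the same 6 genes as below were called over the remaining retinas, where 10.2% of all genes were called and 6.77% called higher. Without GCV 2 genes (Fosb and Junb) were called in place of 3, where 1.09% of all genes were called. In whole retina, fewer cells of a type and less RNA per cell cannot be told apart.

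Pressure raised 6 of the 10 genes over the 6 mice. Junb, a Jun family member, and Atf3, a stress-induced partner of Jun, together with Egr1, a zinc finger factor, rose by about the same amount on the log2 scale, and Fosb followed. Jun and Fos, the founding pair of AP-1, rose by less. Jund, Fosl1, Fosl2 and Maff did not pass the test. A gene was called when its adjusted p was under 0.05 in limma's moderated test on log2(FPKM + 1), adjusted by Benjamini and Hochberg over the 18509 genes. All 6 called genes were higher, against 12.2% of genes tested that were called in either direction and 6.76% called higher. The same 6 were called with the 2 eyes of a mouse paired, where 4.83% of genes were called higher. The median log2 fold change of the 10 genes was 0.86, and that of all genes tested was 0.0089. All log2 fold changes below are on the log2(FPKM + 1) scale, which understates the change of genes at low levels.

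**Figure D1:**
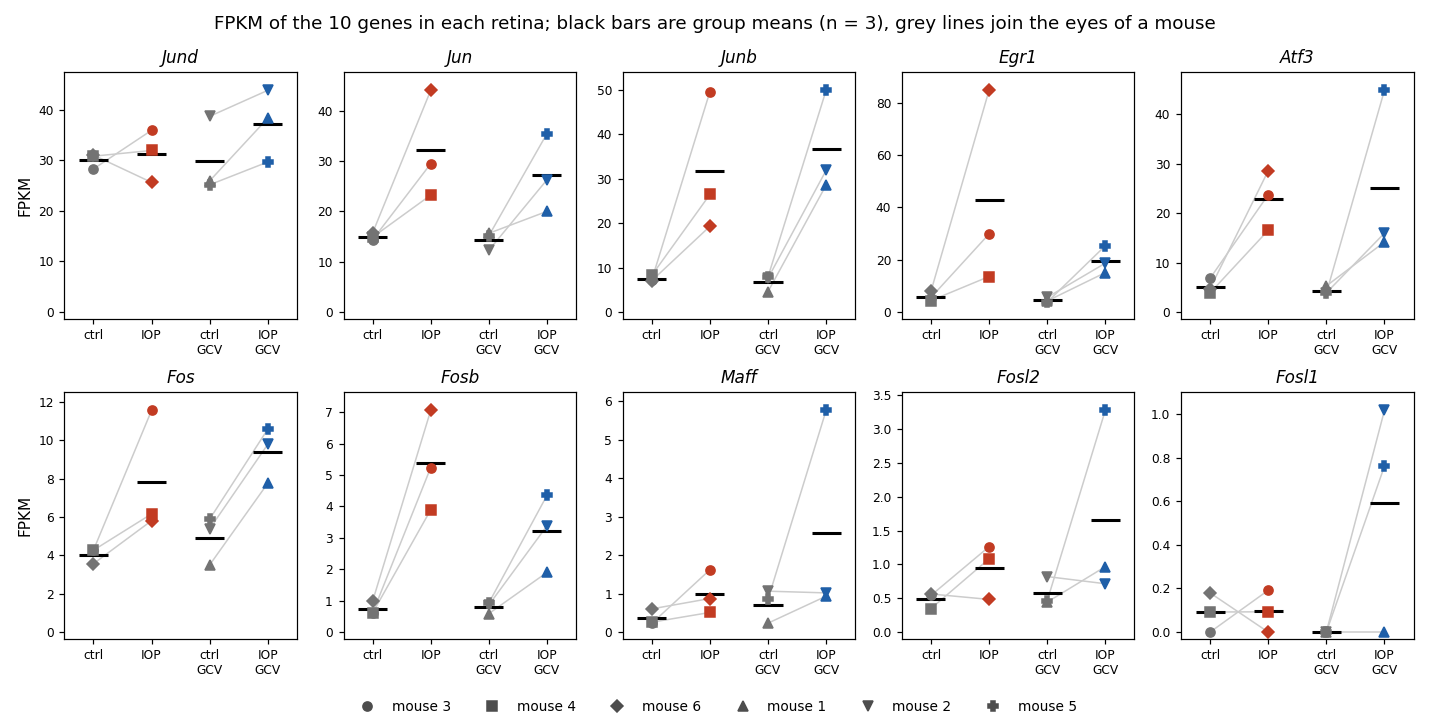
FPKM (y axis, linear, scaled for each gene) of the 10 genes in the 4 groups (x axis), 1 point for each retina, with a symbol for each mouse. Black bars are means of 3 retinas and grey lines join the 2 eyes of a mouse. Junb, Egr1, Atf3, Fosb and Jun lie higher in all 6 IOP retinas than in any control retina, whereas Jund overlaps between the eyes.

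In the Jun family, Junb showed the clearest change. Its level was 7.23, 8.26 and 7.05 FPKM in the ctrl retinas of mice 3, 4 and 6 and 49.6, 26.5 and 19.3 FPKM in their IOP retinas. With GCV it was 4.59, 7.60 and 7.92 FPKM in the ctrl-GCV retinas of mice 1, 2 and 5 and 28.6, 31.9 and 50.0 FPKM in the IOP-GCV retinas. Every IOP retina was above every control retina, and within a mouse the IOP eye was 2.74 to 6.86 times its fellow eye. Over the 6 mice Junb rose by 2.06 on the log2 scale (SE 0.23, adjusted p = 0.00083).

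Jun, the subunit activated by the Jun N-terminal kinases, was at 14.3, 14.9 and 15.7 FPKM in ctrl and 29.4, 23.2 and 44.0 FPKM in IOP. With GCV it was at 15.6, 12.2 and 15.1 FPKM in ctrl-GCV and 20.0, 26.3 and 35.4 FPKM in IOP-GCV. The control retinas lay close together and below all IOP retinas, among which mouse 6 was highest and mouse 1 lowest. The rise of Jun over 6 mice was 0.93 on the log2 scale (SE 0.17, adjusted p = 0.0088). Mouse 1 changed least, with a ratio of 1.28 between its eyes, and mouse 6 most, with 2.80.

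Jund, the family member with steady expression, was at 28.3, 30.8 and 31.1 FPKM in ctrl and 36.0, 32.0 and 25.7 FPKM in IOP. In the GCV arm it was at 26.0, 38.7 and 25.2 FPKM in ctrl-GCV and 38.4, 43.9 and 29.7 FPKM in IOP-GCV. IOP and control retinas overlapped in both arms, and the IOP eye of mouse 6 was below its fellow eye. The log2 fold change of Jund over 6 mice was 0.18, with a 95% interval of -0.12 to 0.48 (adjusted p = 0.417), an interval that lies below the estimates for Junb and Jun.

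In the Fos family, Fosb, whose product pairs with Jun proteins and persists as a truncated form after repeated stimulation of neurons, was near the floor in control retinas. It was at 0.605, 0.608 and 0.984 FPKM in ctrl and 5.24, 3.89 and 7.06 FPKM in IOP. With GCV it was at 0.588, 0.863 and 0.928 FPKM in ctrl-GCV and 1.90, 3.38 and 4.35 FPKM in IOP-GCV. All IOP retinas were above all control retinas, and mouse 1 had the lowest of the IOP values. Fosb rose by 1.53 on the log2 scale over 6 mice (SE 0.18, adjusted p = 0.00095), and the ratio between the eyes ran from 3.23 in mouse 1 to 8.65.

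Fos was at 4.27, 4.27 and 3.57 FPKM in ctrl and 11.6, 6.16 and 5.81 FPKM in IOP. In the GCV arm it was at 3.50, 5.39 and 5.89 FPKM in ctrl-GCV and 7.76, 9.79 and 10.6 FPKM in IOP-GCV. Within each arm the IOP retinas lay above the controls, but over both arms the highest control (mouse 5) was above the lowest IOP retina (mouse 6). The rise over 6 mice was 0.79 on the log2 scale (SE 0.18, adjusted p = 0.0227), with the IOP eye higher in 6 of 6 mice. This call was lost without any of 5 libraries, the ctrl retinas of mice 3, 4 and 6, the ctrl-GCV retina of mouse 1 or the IOP-GCV retina of mouse 5, where the adjusted p reached up to 0.0572.

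Fosl2 and Fosl1, Fos-related proteins that lack the strong activation domain of Fos, stayed low. Fosl2 was at 0.541, 0.347 and 0.563 FPKM in ctrl and 1.26, 1.08 and 0.483 FPKM in IOP. With GCV it was at 0.443, 0.820 and 0.460 FPKM in ctrl-GCV and 0.966, 0.714 and 3.27 FPKM in IOP-GCV. The groups overlapped, and 4 of 6 mice were higher in the IOP eye, with mouse 5 the highest by far (log2 fold change 0.50, adjusted p = 0.143). Fosl1 was listed at 0 in 6 of the 12 libraries. Its values above 0 were 0.0920 and 0.180 FPKM in ctrl mice 4 and 6, 0.192 and 0.0932 FPKM in IOP mice 3 and 4, and 1.02 and 0.761 FPKM in IOP-GCV mice 2 and 5. Only the last pair rested on more than about 2.6 fragments, with an estimated 11.7 and 11.2. The Fosl1 change over 6 mice did not pass the test (log2 fold change 0.31, adjusted p = 0.188) and did so only without the IOP-GCV retina of mouse 1, a retina at 0 (adjusted p = 0.0043).

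**Figure D2:**
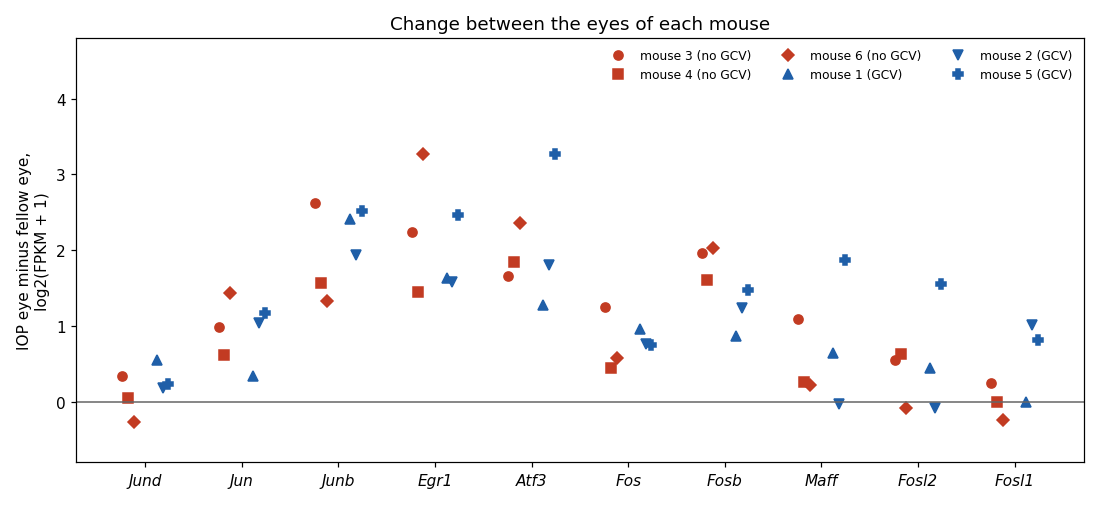
Difference in log2(FPKM + 1) between the IOP eye and the fellow eye (y axis) for each gene (x axis), with 1 point for each of 6 mice, red for mice without GCV and blue for mice with GCV. The points of Jun, Junb, Egr1, Atf3, Fos and Fosb are above 0 in all 6 mice, and those of Jund, Maff, Fosl2 and Fosl1 are not.

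Atf3, a factor of the ATF family that is switched on by cell stress and axon injury, was at 6.83, 3.88 and 4.75 FPKM in ctrl and 23.7, 16.5 and 28.6 FPKM in IOP. With GCV it was at 5.27, 3.88 and 3.78 FPKM in ctrl-GCV and 14.2, 16.0 and 44.9 FPKM in IOP-GCV. No IOP retina overlapped a control, and the widest gap between eyes was in mouse 5, at 11.9 times. Its log2 fold change over 6 mice was 2.03 (SE 0.27, adjusted p = 0.0018).

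Egr1, a zinc finger factor induced with Fos by growth factors and neuronal activity, was at 5.53, 4.34 and 7.88 FPKM in ctrl and 29.8, 13.6 and 84.7 FPKM in IOP. With GCV it was at 4.20, 5.58 and 3.76 FPKM in ctrl-GCV and 15.0, 18.6 and 25.3 FPKM in IOP-GCV. All IOP retinas exceeded all controls, and the value of 84.7 FPKM came from the shallow library of mouse 6. Egr1 rose by 2.10 on the log2 scale over 6 mice (SE 0.36, adjusted p = 0.0070), and by at least 1.77 in every fit that left out a single library, all of which kept the call.

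Maff, a small Maf protein that binds DNA but lacks an activation domain, was at 0.226, 0.256 and 0.603 FPKM in ctrl and 1.62, 0.510 and 0.872 FPKM in IOP. In the GCV arm it was at 0.232, 1.06 and 0.851 FPKM in ctrl-GCV and 0.932, 1.02 and 5.76 FPKM in IOP-GCV. The groups overlapped in both arms, 5 of 6 mice were higher in the IOP eye, and the change did not pass the test (log2 fold change 0.68, adjusted p = 0.167). As for Fosl2, the highest value was the IOP-GCV retina of mouse 5.

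Counted without a test, the IOP retinas did not overlap the controls for 6 of the 10 genes without GCV (Fos, Fosb, Jun, Junb, Atf3 and Egr1), where the same held for 11.7% of all genes tested with IOP higher. With GCV these 6 again did not overlap, against 14.5% of all genes. Over both arms, 6 retinas against 6, 5 genes did not overlap (all of these but Fos), against 5.47%. The IOP eye was the higher one in all 6 mice for 6 of the 10 genes, against 10.7% of all genes.

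The order of the levels changed with pressure. In the 6 control retinas Jund was highest at 30.0 ± 4.91 FPKM (SD, n = 6), followed by Jun at 14.7 ± 1.28 FPKM and Junb at 7.11 ± 1.31 FPKM, and the ranges of Jund and Jun, and of Jun and Junb, did not overlap. Egr1 at 5.22 ± 1.50 FPKM, Atf3 at 4.73 ± 1.19 FPKM and Fos at 4.48 ± 0.969 FPKM overlapped Junb and each other. Fosb at 0.763 ± 0.182 FPKM, Maff at 0.538 ± 0.360 FPKM and Fosl2 at 0.529 ± 0.162 FPKM formed a lower set of overlapping genes, below Fos and above Fosl1 at 0.0453 ± 0.0754 FPKM. In the 6 IOP retinas Junb (34.3 ± 12.7 FPKM), Jund (34.2 ± 6.51 FPKM), Egr1 (31.2 ± 27.0 FPKM), Jun (29.7 ± 8.79 FPKM) and Atf3 (24.0 ± 11.6 FPKM) overlapped, so that their order was not resolved. Fos, at 8.61 ± 2.39 FPKM, lay below all of these without overlap, and next came Fosb at 4.30 ± 1.75 FPKM, whose range overlapped that of Fos. The ratio of the means was 5.98 for Egr1, 5.64 for Fosb, 5.07 for Atf3, 4.83 for Junb, 3.31 for Maff, 2.45 for Fosl2, 2.03 for Jun, 1.92 for Fos and 1.14 for Jund, and none is given for Fosl1, which was listed at 0 in 4 of the 6 controls. The place of Egr1 rested on the shallow IOP library of mouse 6, without which its ratio was 3.93 and those of Fosb, Atf3 and Junb were 4.92, 4.87 and 5.25. The ratio of Maff rested on the IOP-GCV retina of mouse 5, at 5.76 FPKM against 0.510 to 1.62 FPKM in the other 5 IOP retinas, and was 1.84 without it, below the ratio of Jun without the same retina, 1.95. The ratio of Fosl2 also rested on that retina, at 3.27 FPKM against 0.483 to 1.26 FPKM in the other 5 IOP retinas. Without it the Fosl2 ratio was 1.70, below those of Jun (1.95) and Fos (1.83) without the same retina. Leaving out any other single retina moved no ratio by more than 1.5 times, and these settings were chosen after the values were seen.

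The makeup of the AP-1 transcript pool differed accordingly. The summed level of the 4 Fos and 3 Jun family genes was 50.7 to 65.7 FPKM in control retinas and 92.9 to 134 FPKM in IOP retinas. The share of Jund was 45.4% to 59.0% of that sum in controls and 22.2% to 39.3% after pressure, and the share of Junb was 9.05% to 14.3% and 18.9% to 37.3%, with no overlap for either. The share of the 4 Fos genes together was 8.94% to 13.1% in controls and 10.9% to 14.2% after pressure, ranges that overlapped. Within each mouse it was higher in the IOP eye in 6 of 6, by 3.12 to 4.09 percentage points without GCV, where the groups did not overlap, and by 1.04 to 1.97 percentage points with GCV, where they did. In the IOP retina of mouse 6 the largest share was that of Jun, at 43.0%. Junb led in mouse 3 without GCV and mouse 5 with GCV, and Jund kept the largest share in mouse 4 (34.4%), mouse 1 (39.3%) and mouse 2 (37.5%). These shares are descriptions of transcript levels and no test was run on them.

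**Figure D3:**
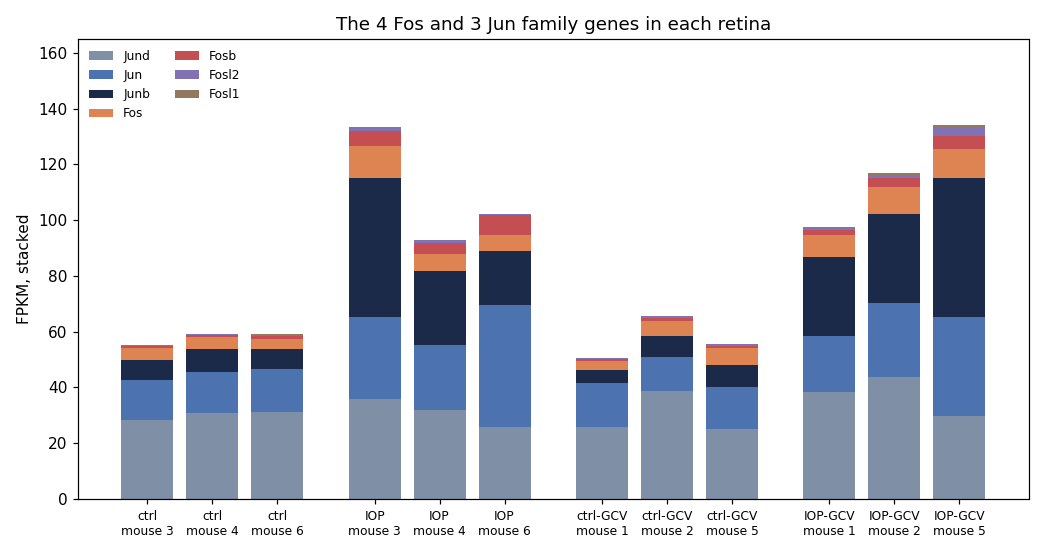
Stacked FPKM (y axis, from 0) of the 3 Jun and 4 Fos family genes in each of the 12 retinas (x axis, by group and mouse). The Jund layer runs from 25.2 to 43.9 FPKM and overlaps between control and IOP retinas, while the Junb layer widens from at most 8.26 FPKM in controls to between 19.3 and 50.0 FPKM in IOP retinas.

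Without GCV, 3 of the 10 genes were called (Fosb, Junb and Atf3), against 1.65% of genes tested called in either direction and 1.42% called higher. Fosb rose by 1.86 on the log2 scale (SE 0.25, adjusted p = 0.0107), and stayed called with the eyes paired (adjusted p = 0.0327). Junb rose by 1.84 (adjusted p = 0.0253, or 0.0559 paired) and Atf3 by 1.96 (adjusted p = 0.0360, or 0.0971 paired), so that pairing left 1 gene called. Egr1 was estimated at 2.32 (SE 0.51, adjusted p = 0.0555), and at 1.65 without the IOP library of mouse 6, where Junb was at 2.13. Jun (log2 fold change 1.01) had an adjusted p of 0.0695 and Fos (0.76) one of 0.179. With 3 retinas a group the count rested on single libraries, and the share of all genes called moved with it. It was 0 without the ctrl retina of mouse 3 (0.125% of all genes) or of mouse 4 (0.163%), and 1 without the ctrl retina of mouse 6 (0.602%) or the IOP retina of mouse 3 (0.663%). It was 5 without the IOP retina of mouse 4 (13.5%) or the IOP-GCV retina of mouse 5 (4.26%).

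With GCV, the same 3 genes were called, against 1.8% of genes tested in either direction and 1.65% higher. Junb rose by 2.29 on the log2 scale (SE 0.32, adjusted p = 0.0085, or 0.0298 with the eyes paired). Atf3 rose by 2.11 (adjusted p = 0.0232, or 0.0713 paired) and Fosb by 1.19 (adjusted p = 0.0436, or 0.0579 paired), and 1 gene, Junb, was called when the eyes were paired. Not called were Egr1 with an estimate of 1.89 (adjusted p = 0.0961), Jun with 0.85 (adjusted p = 0.104) and Fos with 0.82 (adjusted p = 0.129). The count was 1 without any of the 3 ctrl-GCV retinas (0.417% to 0.509% of all genes), and 5 without the IOP retina of mouse 4 (5.67%) or of mouse 6 (2.90%).

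The response to pressure was not shown to differ with GCV. For the interaction, the log2 change with GCV minus that without, none of the 10 genes was called and 0% of genes tested were, with all adjusted p of the 10 genes at 0.997 or above in limma. At an unadjusted p under 0.05 there were 358 genes and none of the 10. Fosb had the most negative estimate, -0.67, with a 95% interval of -1.46 to 0.12 (unadjusted p = 0.0870, or 0.0443 with the eyes paired). Fosl1 had the smallest unadjusted p of the 10 in the unpaired fit, 0.0651, with an estimate of 0.60 (-0.05 to 1.25), and 7 of the 10 estimates were above 0. For Junb the estimate was 0.44 (-0.58 to 1.46), for Atf3 0.16 (-1.05 to 1.36) and for Egr1 -0.43 (-2.03 to 1.18), intervals that leave room for large differences either way. For Jun it was -0.16 (-0.90 to 0.58) and for Fos 0.06 (-0.72 to 0.85).

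**Figure D4:**
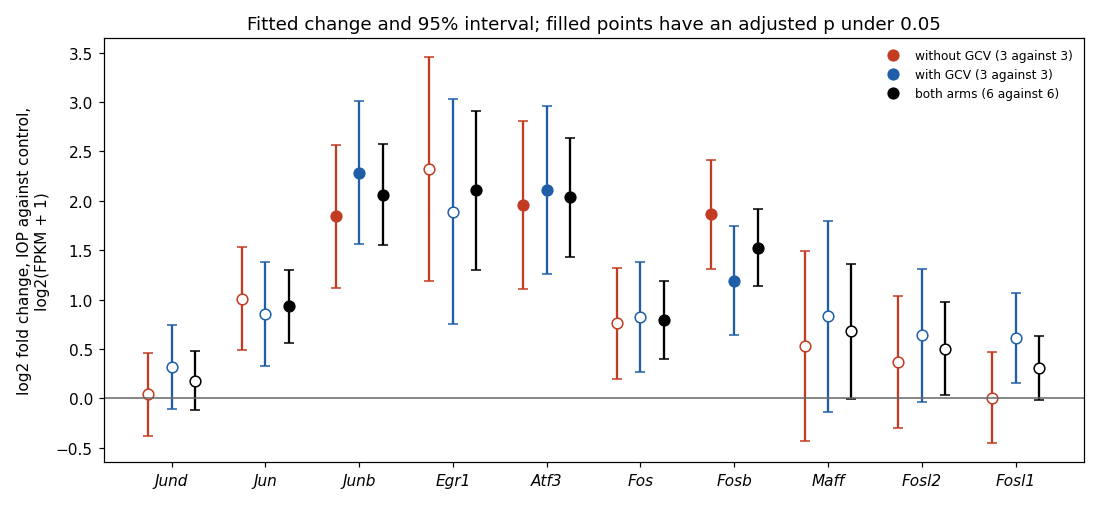
Fitted log2 fold change of IOP against control retinas on log2(FPKM + 1) (y axis) for each gene (x axis), with 95% intervals, without GCV (red, 3 against 3), with GCV (blue, 3 against 3) and over both arms (black, 6 against 6). Filled points have an adjusted p under 0.05, which holds for Junb, Atf3 and Fosb in each arm and also for Egr1, Jun and Fos over both arms.

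GCV itself was compared between mice. Among IOP-treated retinas none of the 10 genes was called and 0% of all genes were. In limma 774 genes had an unadjusted p under 0.05, and 2 of these were Fosb and Fosl1. The log2 fold change was -0.62 for Fosb and 0.48 for Fosl1, both with an adjusted p of 0.819. Fosb was at 5.39 ± 1.59 FPKM in IOP and 3.21 ± 1.23 FPKM in IOP-GCV, and the ranges overlapped. Among control retinas none of the 10 was called, 0% of all genes were, and 295 genes but none of the 10 had an unadjusted p under 0.05. The 2 arms hold different mice, so that GCV and the differences between animals were compared over 3 mice a group.

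The 10 genes did not rank the IOP retinas in the same way. Without GCV, mouse 3 was highest for 6 genes (Fos, Fosl1, Fosl2, Junb, Jund and Maff) and mouse 6 for 4 (Fosb, Jun, Atf3 and Egr1). Junb and Fos were lowest in mouse 6, where Fosb, Jun, Atf3 and Egr1 were highest. With GCV, mouse 5 was highest for 8 genes, all but Fosl1 and Jund, which were highest in mouse 2, and mouse 1 was lowest for Fos, Fosb, Jun, Junb, Atf3, Maff and Egr1.

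Other genes of the pathway were read from lists. Among 22 other basic leucine zipper partners of AP-1, 5 were called higher and 1 (Nfe2l1) lower over the 6 mice, beside 6.76% of all genes tested called higher and 12.2% called in either direction. With the eyes paired 4 were called higher, beside 4.83% of all genes, and 0 lower. The median log2 fold change was 0.32. Cebpd, a CCAAT/enhancer binding protein of the acute phase response, was at 2.78 to 4.21 FPKM in control and 17.3 to 57.9 FPKM in IOP retinas and rose by 3.23 (adjusted p = 0.00013). Cebpb, its relative, rose by 1.50 (adjusted p = 0.0125), Atf7 by 0.62 (adjusted p = 0.0102), and Batf2, a Jun partner in immune cells, by 0.67 from levels of at most 0.107 FPKM (adjusted p = 0.0118). Batf2 stayed near the floor in IOP retinas too, at 0 to 1.42 FPKM, and was higher in the IOP eye of 5 of 6 mice.

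Among 32 other immediate early genes, 11 were called higher (6.76% of all genes) and 0 lower, or 7 (4.83% of all genes) and 0 with the eyes paired, with a median log2 fold change of 0.29. Gadd45b, a stress sensor that binds kinases upstream of p38 and JNK, rose by 2.79 (adjusted p = 0.00016), from 4.11 ± 1.07 to 35.0 ± 10.1 FPKM (SD, n = 6). Zfp36, which destabilises cytokine messages, rose by 1.71 (adjusted p = 0.0017), the nuclear receptor Nr4a1 by 1.10 (adjusted p = 0.0178) and Cyr61, a matrix protein, by 1.08 (adjusted p = 0.0184). The other 21 genes of this list did not pass the test.

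Among 31 genes of JNK, ERK and p38 signaling, which act upstream of AP-1, 1 was called higher and 3 lower. With the eyes paired 1 was called higher and 2 lower, beside 7.3% of all genes called in either direction. The 4 calls of the unpaired fit are a share near the 12.2% of all genes tested called in either direction, so the count is no result about the list. The median log2 fold change was -0.10. Mapk10, the neuronal JNK3 that phosphorylates Jun, fell by 1.23 (adjusted p = 0.0328) from 17.1 ± 3.33 to 7.45 ± 4.39 FPKM (SD, n = 6), and was lower in the IOP eye of all 6 mice. Dusp4, a phosphatase of these kinases, fell by 0.90 (adjusted p = 0.0329), and Map3k13, a kinase upstream of JNK, fell by 0.54 (adjusted p = 0.0240, or 0.0580 paired). Map3k8, a kinase upstream of ERK, rose by 0.79 (adjusted p = 0.0117). These values are transcript levels, and kinase activity was not measured.

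Among 28 genes known as AP-1 targets, 16 were called higher (6.76% of all genes) and 0 lower, or 14 (4.83% of all genes) and 0 with the eyes paired, with a median log2 fold change of 1.34. Timp1, an inhibitor of matrix proteases, rose by 3.43 (adjusted p = 0.0011), Lgals3, a lectin of phagocytes, by 3.30 (adjusted p = 0.0022), the secreted phosphoprotein Spp1 by 3.09 (adjusted p = 0.0026) and the haem-degrading enzyme Hmox1 by 3.04 (adjusted p = 0.0119). Hmox1 spread widely, from 13.9 to 287 FPKM in IOP retinas. Many of these genes are also expressed by immune cells and reactive glia.

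**Figure D5:**
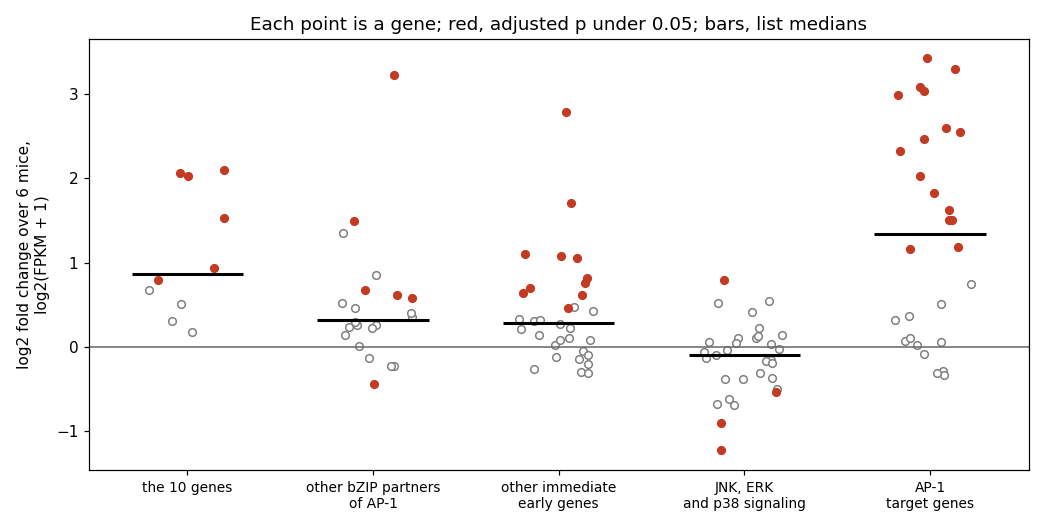
Log2 fold change over 6 mice on log2(FPKM + 1) (y axis) for each gene of 5 lists (x axis), with red points for an adjusted p under 0.05 and black bars at the list medians. The medians are 0.86 for the 10 genes, 0.32 and 0.29 for the other partners and the other immediate early genes, -0.10 for the kinase pathways and 1.34 for the target genes.

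Markers of other cells moved with these results, where 6.76% of all genes tested were called higher and 5.44% lower over the 6 mice (4.83% and 2.47% with the eyes paired). Of 10 microglia and macrophage markers 8 were called higher over 6 mice, with summed levels of 42.2 to 76.0 FPKM in control and 210 to 688 FPKM in IOP retinas. Of 8 markers of infiltrating leukocytes 7 were called higher (9.34 to 46.9 FPKM in control and 176 to 2502 FPKM in IOP retinas), with Chil3 at 0 in all control retinas. Lyz2 made up most of that sum in IOP retinas, at 124 to 2050 FPKM against 5.84 to 40.1 FPKM in control retinas. Cd3e, of the same list, was at most 0.271 FPKM in any retina. All 5 markers of reactive glia were called higher. Of 7 Mueller glia markers 2 were called lower, or 1 with the eyes paired, and their sum was 1283 to 1670 FPKM in control and 535 to 1128 FPKM in IOP retinas, without overlap. The pair called lower was Glul, the glutamine synthetase, and Rlbp1, a retinaldehyde-binding protein. Glul made up most of that sum in control retinas, at 815 to 1119 FPKM in control and 184 to 602 FPKM in IOP retinas, while Slc1a3 had a log2 fold change of -0.01 and Sox9 one of 0.42, neither called. Of 10 ganglion cell markers 9 were called lower, or 3 with the eyes paired, and their sum was 910 to 1860 FPKM in control and 220 to 1000 FPKM in IOP retinas, which overlapped through the IOP retina of mouse 4. The part of these cells in the rise of the AP-1 genes was not tested. The IOP-GCV retina of mouse 5, in which 8 of the 10 genes were highest within the group, also had the highest leukocyte sum (2502 FPKM) and reactive glia sum (1285 FPKM) of the 12 libraries. The other retinas of that group were not ordered in this way. Mouse 1 was lowest for Fos, Fosb, Jun, Junb, Atf3, Maff and Egr1. Its leukocyte and reactive glia sums, 581 and 566 FPKM, were above those of mouse 2, 176 and 484 FPKM.

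Of 11 lens markers 6 were called higher (6.76% of all genes), or 8 with the eyes paired (4.83% of all genes), and their sum was 6.87 to 135 FPKM in 5 control retinas, 7382 FPKM in the ctrl-GCV retina of mouse 1 and 107 to 6823 FPKM in IOP retinas. In that control retina, which held the most lens RNA of the 12 libraries, Junb was at 4.59 FPKM, Fosb at 0.588 FPKM, Atf3 at 5.27 FPKM and Jun at 15.6 FPKM, of which Junb and Fosb were the lowest and Atf3 and Jun the second highest of the 6 controls. The IOP retina with the least lens RNA, that of mouse 3 at 107 FPKM, had 49.6 FPKM of Junb, 5.24 FPKM of Fosb, 23.7 FPKM of Atf3 and 29.4 FPKM of Jun. The part of lens RNA in the change of these genes was not tested.

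The genes whose levels followed these most closely were found by Pearson correlation over the 12 libraries among the 12910 genes whose mean reached 1 FPKM, as a description. All 12 libraries share the same contrast between eyes, so that any gene changed by pressure correlates with the others. Among the closest to Junb were Jak3 (r = 0.99) and Cebpd (r = 0.98), and the closest to Fosb were Agtpbp1, Sec22c and Ikbip (r = 0.98 each). Jun was closest to Cfap126, Eif1a and Dnttip2 (r = 0.99 each), and among the closest to Atf3 were Btc and Lrrc2 (r = 0.98 each). Fos had Usb1 as its closest gene (r = 0.98), followed by Cela1 (0.95) and Efna1 (0.94), and Egr1 had Ptp4a3, Cetn4 and Cnnm4 (r = 0.98 each).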

How the data were processed

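The deposited table gave a value per gene for each of the 12 retinas. Its unit is not stated and was taken to be FPKM as made by the authors, from the decimals, the library sums and the tools (TopHat2, Bowtie2, Cufflinks and Cuffdiff, build mm10) that the submitters' processing notes name without version or role. The study's methods instead describe counting of RefSeq exons, so the program that made the table is open to doubt. Libraries were stranded mRNA libraries. No raw counts were used, and the scaling between libraries is not stated.

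The 18509 genes above 0 entered limma (version 3.58.1, R 4.3.3) on log2(FPKM + 1) with a trended prior and 4 group means, and p-values were adjusted by Benjamini and Hochberg over all genes. The mouse was a block in a second fit, since both eyes came from the same animal (correlation of deviations -0.117 to 0.388 over 12910 genes). Mice are separate animals. The script was tested on simulated data.

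Alternatives were another pseudocount (0.1), a filter (at least 1 FPKM in 3 libraries), other scalings, array weights, no trend, only the groups compared, a threshold of 0.1, and leaving out each library. Depth was estimated from the spacing of low values in 3081 genes, a method chosen after the values were seen. Named genes were all 10, up to 4 called genes of each pathway list with the largest change and a group mean of at least 1 FPKM, and the 3 genes most correlated with each called member. Some of the correlated genes are not reported here. The members and lists were chosen with earlier results of these data known. Promoter sequences are RefSeq's.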

Additional observations from a re-analysis of the deposited data

How the results depend on the processing

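Over the 6 mice, the 6 called genes were the same in every alternative that kept all libraries, and leaving out each library gave 5 to 7 called genes, while 4.51% to 24.5% of all genes were called. The counts within an arm moved with the setting, as did the share of all genes called (in parentheses), and the cause was not tested. Without GCV the count of 3 (1.65%) became 5 with a pseudocount of 0.1 (2.51%), the filter on low values (2.65%) or a threshold of 0.1 (3.28%). It was 4 with quantile normalization (1.77%), and 2 with array weights (0.972%) or only the groups compared (1.8%). With the mouse as a replicate block it was 1 (0.405%), and it ran from 0 to 5 when each library was left out. With GCV the count of 3 (1.8%) became 1 with the replicate block (0.778%), 5 with array weights (9.3%) and 4 at a threshold of 0.1 (4.21%). It was 2 with quantile normalization (Atf3 and Junb, 2.15%). It was also 2 with only the groups compared (0.512%), where Egr1 and Junb were called and Atf3 and Fosb were not. The count ran from 1 to 5 when each library was left out. Over the 6 mice the block left the same 6 genes called, while the share of all genes called fell from 12.2% to 7.3%. For the genes described here, the counts for the interaction and for GCV stayed at 0 in all fits.

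Some small estimates changed sign, none of them called. Without GCV, quantile normalization gave -0.0313 for Fosl1 and -0.0151 for Jund, and leaving out each library gave -0.0576 to 0.069 and -0.0663 to 0.1694. For the interaction, array weights gave -0.2152 for Fos, -0.0516 for Fosl2, -0.1229 for Atf3 and -0.2273 for Maff. Leaving out each library gave interactions of -0.1218 to 0.3469 for Fos, -0.1383 to 0.5206 for Fosl2, -0.3635 to 0.0838 for Jun, -0.3494 to 0.4488 for Atf3, -0.2911 to 0.6119 for Maff and -1.0348 to 0.244 for Egr1. Depth limits Fosl1, which rests on an estimated 2.6 fragments or fewer in 10 of the 12 libraries.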
